A study of Homo sapiens with 2 samples.

Results

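The kidney development transcription factors studied here are 8 genes listed by their symbols: PAX2, PAX8, WT1, SIX2, EYA1, SALL1, LHX1 and OSR1. They were chosen with earlier results of these data known. Their levels were read from RNA-Seq of untreated HEK293T cells, a human line that was derived from embryonic kidney and carries the SV40 large T antigen. The samples form 1 group of 2 replicates of poly(A)+ RNA, labelled as kidney tissue of wild type genotype, so no condition was compared with another. The labels do not state whether the replicates came from separate cultures, so the spread between them may be technical. Of the 8 genes, 7 were matched by identifier to a row among the 57736 genes of the tables. LHX1 was not matched to a row and is not analysed here.

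The kidney forms where the ureteric bud, an outgrowth of the nephric duct, meets the metanephric mesenchyme. The bud branches into the collecting system, and the mesenchyme around its tips holds the nephron progenitors, which either renew or turn into the epithelium of new nephrons. OSR1 marks the intermediate mesoderm from which these tissues come, and PAX2 and PAX8 are paired-box factors of the nephric duct and of early nephrons. EYA1 is a protein phosphatase and coactivator that binds SIX2, and SIX2 is a homeodomain factor that keeps nephron progenitors in renewal. SALL1 is a zinc finger repressor of the mesenchyme, WT1 is a zinc finger factor needed first in the mesenchyme and later in podocytes, and LHX1 is a LIM homeodomain factor of the duct and of early nephrons.

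Replicate 1 held 10593491 estimated counts and replicate 2 held 10104118. A count of 0 at this depth still allows up to 3 counts, which is 0.283 CPM (counts scaled to the size of the library) in replicate 1 and 0.297 in replicate 2. These limits and the counting intervals below take in nothing but counting error, and copies made by PCR are not separate molecules. Levels are given as TPM, a share of all transcripts, which divides reads by transcript length so that genes can be compared. They are means over the culture, in which fewer cells of a type and less RNA per cell cannot be told apart.

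The sequences just before the start sites of SIX2, PAX2 and PAX8 are shown first, because SIX2 was the highest of the 7 genes and PAX8, the close relative of PAX2, was the lowest. RefSeq promoter windows (GRCh38.p14) were found for 4 of the 8 genes, the fourth being WT1. Each sequence below gives the 250 bases before the start on the strand of the gene, 5′ to 3′. Capitals mark the GC box, searched as GGGCGG on both strands, and the CCAAT box, searched as CCAAT on both strands. In GRCh38.p14 the SIX2 sequence lies on the minus strand at chr2:45009453-45009702, that of the first of 2 PAX2 starts on the plus strand at chr10:100735146-100735395, and that of PAX8 on the minus strand at chr2:113278922-113279171.
SIX2: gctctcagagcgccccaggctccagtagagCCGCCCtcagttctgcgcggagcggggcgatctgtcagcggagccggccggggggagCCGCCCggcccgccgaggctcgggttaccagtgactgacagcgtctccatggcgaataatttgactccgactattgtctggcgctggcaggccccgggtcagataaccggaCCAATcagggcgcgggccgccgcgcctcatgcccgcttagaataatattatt
PAX2: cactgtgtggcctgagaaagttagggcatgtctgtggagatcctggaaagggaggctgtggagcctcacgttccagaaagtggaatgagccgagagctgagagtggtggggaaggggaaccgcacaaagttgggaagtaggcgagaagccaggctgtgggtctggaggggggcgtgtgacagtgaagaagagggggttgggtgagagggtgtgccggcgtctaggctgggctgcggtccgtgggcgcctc
PAX8: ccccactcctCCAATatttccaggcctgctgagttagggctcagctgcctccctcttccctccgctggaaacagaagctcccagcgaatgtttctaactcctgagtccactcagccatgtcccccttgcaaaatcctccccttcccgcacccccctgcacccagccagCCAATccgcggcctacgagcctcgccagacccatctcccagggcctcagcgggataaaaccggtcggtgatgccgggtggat

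Each of these sequences had 1 exact match in GRCh37, the build of the tables, and there each ended at the base next to the annotated gene. The SIX2 sequence held 2 GC boxes and 1 CCAAT box. PAX8 held 2 CCAAT boxes and no GC box, and the first PAX2 start held neither. Of 35116 promoter windows of the same length, 42.6% held a GC box and 32.0% a CCAAT box. The ratio of observed to expected CpG was 0.967 for SIX2, above 88.7% of all windows, against 0.531 for PAX2 and 0.518 for PAX8, both near the median of 0.558. These letters are a description of the windows, and no relation to the levels was tested.

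SIX2 was the highest of the 7 genes. It is a single-transcript gene in the tables and lies on the minus strand of chromosome 2 from 45232321 to 45236591 (GRCh37). It had a TPM of 33.2 in replicate 1 and 33.3 in replicate 2, a mean of 33.2 ± 0.0849 (SD, n = 2), from 534 and 516 estimated counts. The 2 libraries were nearly equal for this gene, and its SD was far below the counting interval of a single library, which ran from 30.4 to 36.1 TPM in replicate 1. Of 19391 protein-coding genes, 77.0% had a lower mean TPM than SIX2.

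SALL1 came next. The gene, on the minus strand of chromosome 16 from 51169893 to 51186245, showed a TPM of 22.2 in replicate 1 and 25.2 in replicate 2, a mean of 23.7 ± 2.09 (SD, n = 2), from 634 and 537 counts. The higher TPM was thus in replicate 2 and the higher count in replicate 1. Every TPM of SALL1 lay below every TPM of SIX2, and the ratio of the means was 1.40.

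WT1 and EYA1 formed the middle of the order and were not separated from each other. WT1, on the minus strand of chromosome 11 from 32409321 to 32457110, showed a TPM of 10.0 in replicate 1 and 10.5 in replicate 2, a mean of 10.2 ± 0.346 (SD, n = 2). EYA1, on the minus strand of chromosome 8 from 72109668 to 72504260, showed a TPM of 10.9 in replicate 1 and 9.21 in replicate 2, a mean of 10.0 ± 1.17 (SD, n = 2). WT1 was lower in replicate 1 and higher in replicate 2, so their ranges overlapped, and 55.7% and 55.5% of protein-coding genes had a lower mean TPM. SALL1 exceeded both in each library, by a ratio of means of 2.31 over WT1.

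PAX2 was the lowest gene that passed the detection threshold, set at 1 TPM in each of the replicates. The gene, on the plus strand of chromosome 10 from 102495153 to 102589701, showed a TPM of 4.34 in replicate 1 and 2.47 in replicate 2, a mean of 3.41 ± 1.32 (SD, n = 2), from 99 and 62 counts. Both of its values lay below those of EYA1, and the ratio of means was 2.95. Of protein-coding genes 43.7% had a lower mean.

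OSR1 and PAX8 did not reach the threshold. OSR1, on the minus strand of chromosome 2 from 19551246 to 19558384, was read with 8 counts in replicate 1 and 5 in replicate 2, which gave a TPM of 0.57 and 0.48. The counting interval ran from 0.245 to 1.12 TPM in replicate 1 and from 0.157 to 1.13 in replicate 2, so this depth does not place OSR1 firmly below a TPM of 1. PAX8, on the minus strand of chromosome 2 from 113973574 to 114036498, had 0 counts in replicate 1 and 1 count in replicate 2. A count of 0 for PAX8 allows a TPM of up to 0.220 in replicate 1, and the interval for the single count in replicate 2 reached 0.286. PAX8 was among the 4147 protein-coding genes (21.4%) with at most 1 estimated count in each replicate.

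In all, 5 of the 7 genes with a row were detected, against 27.7% of all genes and 63.7% of protein-coding genes. With so few genes, that count is not set apart from the share of protein-coding genes. The order of mean TPM, in which WT1 and EYA1 change places when 1 transcript length is used for both libraries, was SIX2, SALL1, WT1, EYA1, PAX2, OSR1 and PAX8. The replicate ranges of neighbours were apart except for WT1 and EYA1. The 95% counting intervals, which carry the depth of each library, were apart in both libraries for SIX2 and SALL1, SALL1 and WT1, EYA1 and PAX2, and PAX2 and OSR1. The intervals deposited with the TPM of SIX2 and SALL1 were apart in 1 of the libraries. The counting intervals overlapped for WT1 and EYA1 and for OSR1 and PAX8. Because an exact permutation test of 2 values against 2 cannot give a p below 0.33, no p is attached to this order.

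**Figure D1:**
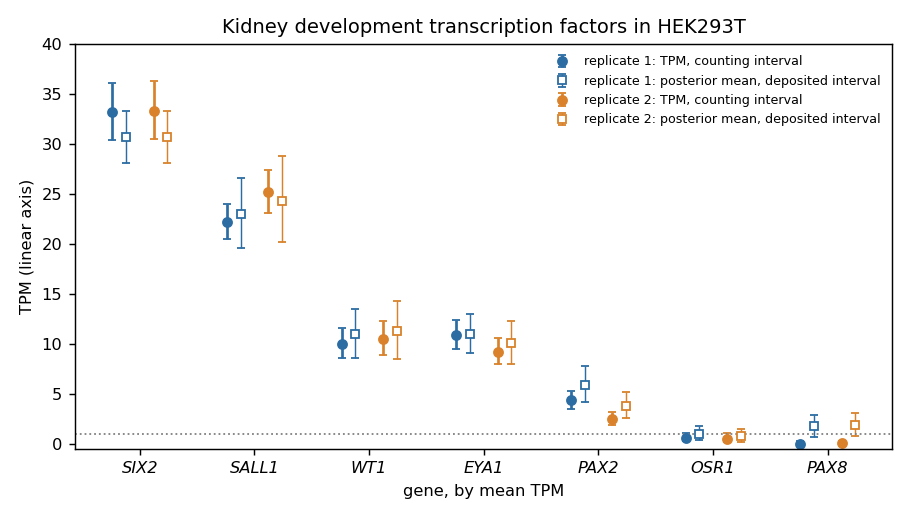
TPM (linear axis) of the 7 genes with a row, ordered by mean TPM. Filled circles are the deposited TPM with its 95% counting interval, open squares the deposited posterior mean with the interval deposited with it, colours are the 2 replicates, and the dotted line is a TPM of 1. SIX2 stands at 33.2 and 33.3, and PAX8 has circles at 0 and 0.05 but squares at 1.74 and 1.85.

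**Figure D2:**
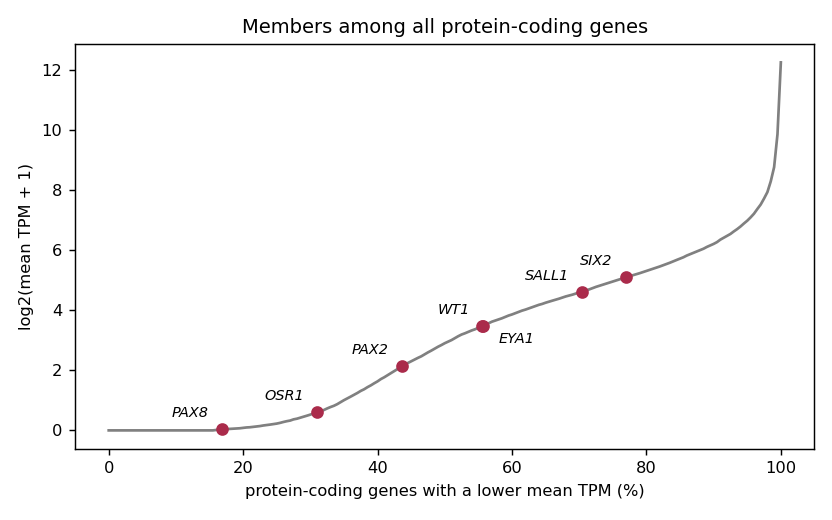
Mean level of each gene, as log2(mean TPM + 1), against the percent of protein-coding genes with a lower mean TPM; the grey line is all 19391 protein-coding genes. The genes run from PAX8 at 16.9% to SIX2 at 77.0%, with WT1 and EYA1 at nearly the same point.

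The deposited tables also give a posterior mean and an interval for each TPM, and these differed from the counts for PAX8. Its posterior mean was 1.74 in replicate 1 and 1.85 in replicate 2, with intervals from 0.714 to 2.91 and from 0.773 to 3.05, although it had 0 and 1 counts. For OSR1 the posterior mean was 1.00 and 0.79. By posterior means PAX8 thus passed the detection threshold with 0 and 1 reads and stood above OSR1, which had 13 reads in all. The same held widely: 8112 genes with 0 counts in both replicates, 30.3% of such genes, had a posterior mean TPM of at least 1 in both. The tables list 13 transcripts for PAX8 and 4 for OSR1. For SIX2, with 1 transcript, the posterior mean was 30.7 in each replicate.

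The libraries were compared gene by gene to learn whether the difference at any of these genes exceeded read sampling. An exact two-sided binomial test of rounded counts, with library sizes scaled by edgeR and Benjamini-Hochberg adjustment over 17920 genes, called 696 genes, or 3.88% of those tested. It compares the 2 libraries and not conditions. Of the 6 genes with enough counts to test, 0 passed after adjustment by this test, and 1, PAX2, had an unadjusted p under 0.05. The count of PAX2 was 1.60 times as high in replicate 1, a log2 ratio of -0.59 for replicate 2 over replicate 1 (95% counting interval -1.08 to -0.12), with an exact binomial p of 0.0114 and an adjusted p of 0.161. For SALL1 the log2 ratio was -0.16 (-0.33 to 0.01), with an adjusted p of 0.401 by the same exact test. For SIX2 it was 0.03 (-0.15 to 0.21), and for WT1 and EYA1 the intervals also included 0.

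The transcript length by which reads were divided differed between the libraries, because it is an average over the isoforms as estimated in each. The effective length of SALL1 was 3826 nt in replicate 1 and 2970 nt in replicate 2, a ratio of 0.776. When the effective length of the pooled table, 3348 nt, was used in both libraries, SALL1 had a TPM of 25.4 in replicate 1 and 22.3 in replicate 2, so that the order of the libraries turned. For EYA1 the effective length rose from 2715 nt in replicate 1 to 3204 nt in replicate 2, and at the pooled length its TPM was 10.0 in both. PAX2 was still higher in replicate 1 at the pooled length, with 4.10 against 2.66, but the ratio of the libraries was 1.54 in place of 1.76. The libraries of OSR1 moved apart instead, from 0.57 and 0.48 as deposited to 0.734 in replicate 1 and 0.476 in replicate 2. For WT1 the order of the libraries turned as it did for SALL1, with 10.1 in replicate 1 and 9.64 in replicate 2. The mean of WT1 was then 9.85 and that of EYA1 10.02, so that the order of these genes, which were not separated as deposited, turned too. SIX2, with 1 transcript, had 1 length and did not move. The pooled length was chosen after the data were seen, and the part of length in these differences was not tested.

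**Figure D3:**
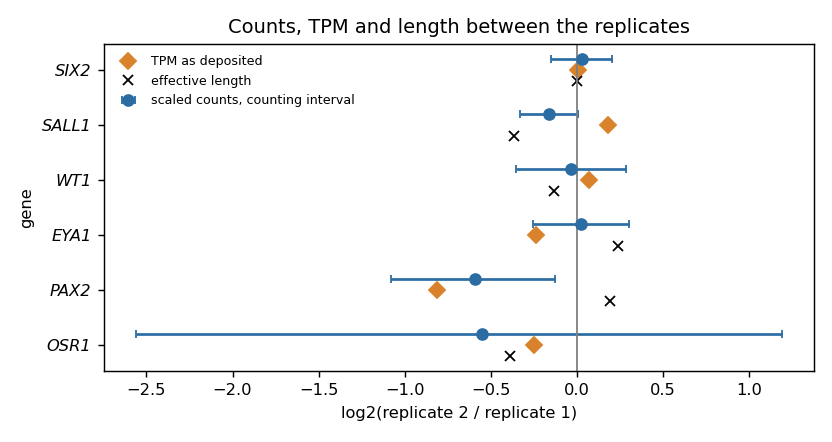
Log2 ratio of replicate 2 over replicate 1 for the 6 genes with counts in both libraries. Circles are scaled counts with their 95% counting interval, diamonds the deposited TPM and crosses the effective length. The diamond of SALL1 lies to the right of 0 and its circle to the left at -0.16, and the interval of PAX2 alone does not reach 0.

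How far each value belongs to its own gene was examined by cutting the annotated transcripts into windows of 50 bases, the length of the reads. PAX2, WT1, SIX2 and OSR1 shared 0% of their windows with transcripts of any other gene. SALL1 shared 0.524%, all with its pseudogene copy SALL1P1, and EYA1 shared 2.82%, mostly with 2 long non-coding genes that overlap it on the other strand. PAX8 shared 18.1%, and PAX8-AS1, which is read from the opposite strand, accounted for 1392 such windows. Estimated counts were whole in both libraries for 6 of the 7 genes, against 57.8% of all genes with reads. A whole count can still hold reads of uncertain origin, which the deposited posterior SD of the count scores. For EYA1 this SD was 0.36 in replicate 1 and 0.56 in replicate 2, as it was for the antisense gene ENSG00000254031. It was 0.81 for SIX2 in replicate 2, 0.05 and 0.07 for SALL1, and 0 for PAX2, PAX8 and OSR1. For WT1 it was 0.5 in replicate 1, where the count was not whole, and 0 in replicate 2.

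Genes that overlap these 7 or lie within 5 kb had few or no reads. PAX8-AS1 and RP11-65I12.1, both antisense to PAX8, had 0 counts in both libraries, so reads given to an antisense gene were also absent at PAX8. WT1 was the only one of the 7 with a count that was not whole, 174.43 in replicate 1. WT1-AS, which overlaps 47 exonic bases of WT1 on the opposite strand, had 17.57 counts there, and the sum of the pair was 192. In replicate 2 WT1 had 161 counts and WT1-AS 16. The TPM of WT1-AS was 1.25 ± 0.424 (SD, n = 2), against 10.2 for WT1. The strand setting of the counting was not found in the sources read, so reads of overlapping genes on opposite strands cannot be told apart with certainty. A non-coding gene inside SALL1, ENSG00000261238, had 2 counts in replicate 1 and 1 in replicate 2. At EYA1 the genes ENSG00000254031, TRAPPC2P2 and AC099805.1 were at 0 counts, as were LINC01376 and MIR4757 near OSR1 and ENSG00000231156 near SIX2, and PAX2 had no such neighbour, while ENSG00000285579 at EYA1 and ENSG00000285367 at SALL1 had no matched row.

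Each gene was then set beside its own family, since paralogues can act at related sites. Among the PAX genes, PAX6, a factor of eye and brain, was highest with a TPM of 48.2 in replicate 1 and 42.8 in replicate 2, and it held 66.6% ± 1.64 (SD, n = 2) of the summed TPM of 9 PAX genes. PAX3, known from neural crest and muscle, followed with 11.8 and 14.5. PAX9 had 3.77 and 3.80, so it lay within the range of PAX2. PAX2 held 4.93% ± 1.64 (SD, n = 2) of the family sum and PAX8 0.0382% ± 0.0540. PAX4 had 0 counts in both replicates. The renal PAX genes were therefore the minor part of PAX transcripts in these libraries.

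SIX2 was set beside other homeobox genes of its family in the same way. SIX4 and SIX5 were detected below the level of SIX2 in both replicates, with mean TPM values of 16.4 ± 0.870 and 11.8 ± 0.127 (SD, n = 2), whereas SIX3 and SIX6, named after their values were seen, had at most 5 counts in a library.

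All 4 EYA genes were detected, and EYA1 was not the leading one. EYA3 had a TPM of 52.7 in replicate 1 and 49.0 in replicate 2, EYA4 had 24.8 and 24.7, and EYA2 had 3.99 and 6.28. EYA1 held 11.0% ± 1.00 (SD, n = 2) of the family sum. The SALL genes were likewise all detected. SALL2 was highest with 37.6 and 37.9, SALL1 held 33.4% ± 2.31 (SD, n = 2), and SALL3 and SALL4, the latter known from pluripotent cells, had mean TPM values of 4.40 ± 0.276 and 5.13 ± 1.22 (SD, n = 2).

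OSR1 and its only paralogue differed in the other direction. OSR2 had a TPM of 9.16 in replicate 1 and 9.78 in replicate 2 and held 94.7% ± 0.834 (SD, n = 2) of the pair. It stood at 112 and 99 counts where OSR1 had 8 and 5, and the 2 ranges did not overlap. Among 10 LIM homeobox relatives of LHX1, 7 were detected: ISL2 and ISL1 led with mean TPM values of 14.3 ± 1.03 and 11.8 ± 0.785, followed by LHX6, LHX4, LHX2, LHX8 and LHX9 between 5.63 and 1.46 (SD, n = 2). LHX5 and LMX1A had 0 counts. The EGR genes, whose zinc fingers resemble those of WT1, were not detected, with 0 of 4 passing. EGR1 had a mean TPM of 1.06 ± 0.283 and EGR3 of 0.375 ± 0.219 (SD, n = 2), and EGR4 was at 0 counts. In sum, 20 of 33 paralogues and relatives were detected (60.6%), which is near the 63.7% of protein-coding genes.

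**Figure D4:**
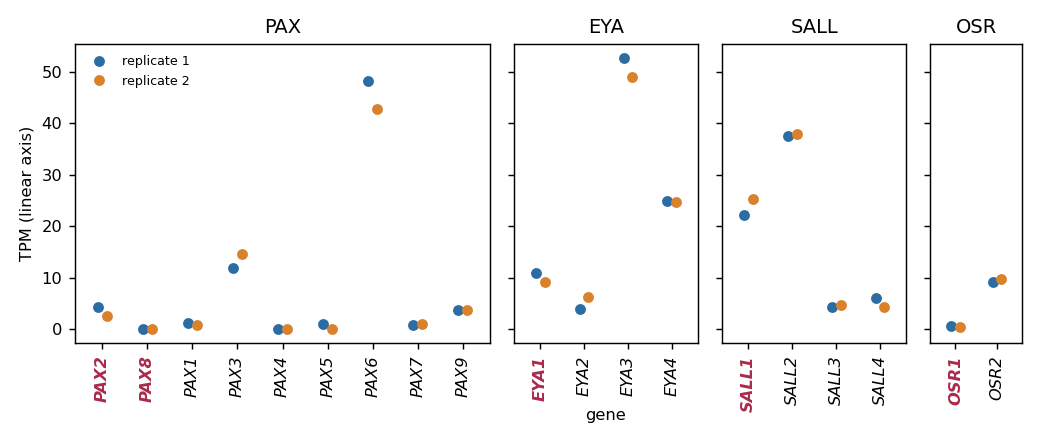
TPM (linear axis) of each gene of the PAX, EYA, SALL and OSR families in the 2 replicates, with the kidney development genes in bold red on the gene axis. In each of these another gene lies above them, namely PAX6, EYA3, SALL2 and OSR2.

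The proteins with which these factors work were read from a list as well. Of 30 partner genes with a row, 28 were detected (93.3%), against 63.7% of protein-coding genes, with a median log2(mean TPM + 1) of 5.71, against 2.91 for protein-coding genes. PAXIP1, the adaptor between PAX2 and a histone methyltransferase complex, had a mean TPM of 39.1 ± 1.85, and KMT2D, an enzyme of such a complex, 54.8 ± 1.32 (SD, n = 2). For EYA1 and SIX2, the corepressors TLE3 and TLE1 had 102 ± 8.82 and 45.5 ± 1.51 (SD, n = 2). All 11 genes of the NuRD complex, through which SALL1 represses, were detected, with RBBP4 at 382 ± 4.11 and RBBP7 at 336 ± 24.5 (SD, n = 2). SSBP3 and SSBP4, which belong to the LIM cofactor complex of LHX1, had 84.7 ± 11.5 and 58.9 ± 2.12 (SD, n = 2). WTAP and PAWR, both named for binding WT1, had 71.6 ± 2.28 and 70.2 ± 0.721 (SD, n = 2). Most of these partners are known from a wide range of cell types. PAGR1 and DACH1 had no matched row.

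Other genes of kidney development were counted by the tissue in which they act. Of 13 nephron progenitor and mesenchyme genes 10 were detected (76.9%), against 63.7% of protein-coding genes. With so few genes, that share is not set apart from the share of protein-coding genes. The median log2(mean TPM + 1) of the list was 3.81, against 2.91 for protein-coding genes. HOXD11 and BMP7 were highest. HOXD11, a patterning gene of the metanephric mesenchyme, had a TPM of 38.5 in replicate 1 and 42.8 in replicate 2, and BMP7, a survival signal for progenitors, had 41.8 and 36.6. Outside the rule for naming genes and chosen after its values were seen, GDNF, the signal from the mesenchyme to the bud, had 15 counts in each library and a mean TPM of 0.57 ± 0.0141 (SD, n = 2), below the threshold. CITED1, a marker of the least differentiated progenitors, was chosen in the same way and had 35.0 ± 1.17 (SD, n = 2). MEOX1 and FGF20 of the same list, also chosen after their values were seen, did not pass. Their mean TPM values were 0.54 ± 0.127 and 0.215 ± 0.191 (SD, n = 2).

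Among ureteric bud genes 7 of 10 with a row were detected (70.0%), near the 63.7% of protein-coding genes. The median was 2.06, below the 2.91 of protein-coding genes. SPRY1, an inhibitor of receptor tyrosine kinase signalling, had a mean TPM of 18.1 ± 0.955, and GATA3, a regulator of the nephric duct, 15.6 ± 4.49 (SD, n = 2). The GDNF receptor RET, also chosen after its values were seen, had 1.60 in replicate 1 and 1.47 in replicate 2.

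The genes of the renal vesicle and of nephron patterning were the least represented of the developmental lists. Only 4 of 12 were detected (33.3%), against 63.7% of protein-coding genes, with a median of 0.70 against 2.91. In this list 5 genes had 0 counts in both libraries, among them IRX1, IRX2 and HNF4A. NOTCH2, a receptor used when proximal fates are set, had a mean TPM of 40.6 ± 2.02 and IRX3 10.7 ± 1.72 (SD, n = 2). Of 9 genes of podocyte regulation and renal stroma 7 were detected (77.8%), with a median of 3.55. With so few genes, that share is not set apart from the 63.7% of protein-coding genes. FOXC1 was highest with a TPM of 124 in both replicates. TCF21, chosen after its values were seen, had 1 count in replicate 1 and 0 in replicate 2. The counts of FOXC1, NOTCH2, HOXD11 and IRX3 were not whole, so some of their reads had been shared with other genes. The same held in at least 1 replicate for CITED1 and for paralogues such as PAX6, PAX9, EYA4, SALL2 and SIX5. NKX2-1, AMH and several of the partners also had counts that were not whole.

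The labelled tissue was checked against genes of the mature nephron. Of 29 such genes 6 were detected (20.7%), against 63.7% of protein-coding genes. In both replicates 9 of these 29 had 0 counts, against 3068 of 19391 protein-coding genes (15.8%). In podocyte genes PODXL had a mean TPM of 16.6 ± 1.24 (SD, n = 2) and SYNPO did not pass with 0.685 ± 0.177, while PLA2R1 was at 0 counts. In the proximal tubule list LRP2, the endocytic receptor megalin, had 9.12 ± 1.19 and GGT1 2.40 ± 0.0495 (SD, n = 2), the latter with counts that were not whole. SLC34A1 and SLC22A6, both transporters of the proximal tubule, were at 0. For the loop and distal tubule PVALB passed with only 3 and 4 counts, TRPM6 had 0.505 ± 0.0919 (SD, n = 2), and UMOD and SLC12A3 were at 0. In the collecting duct list ATP6V1B1 and AQP3 passed with 3.64 ± 0.0849 and 2.40 ± 0.431 (SD, n = 2), and AQP2, SCNN1G and FOXI1 were at 0. Most defining genes of mature kidney cell types were thus below the threshold at this depth.

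Pooled, the developmental and mature lists differed in median level. The renal vesicle and nephron patterning list, with a median of 0.70, lay near the mature proximal tubule genes at 0.61. Of 44 developmental genes with a row 28 were detected (63.6%), a share equal within 1 percentage point to that of protein-coding genes. The median log2(mean TPM + 1) was 2.13, against 0.17 for the mature genes and 2.91 for protein-coding genes, and the difference of the 2 medians was 1.96. The 7 members with a row had a median of 3.46. The pseudocount sets the size of this difference, which was 3.95 with a pseudocount of 0.1, and its direction held under each alternative run. These medians describe 2 libraries and carry no test.

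**Figure D5:**
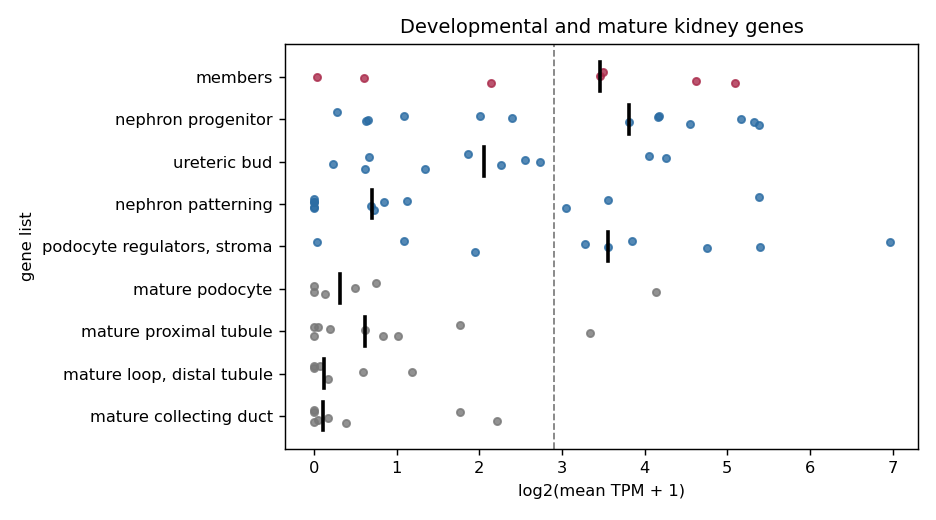
Level of each gene as log2(mean TPM + 1) in the 7 members (red), 4 developmental lists (blue) and 4 lists of mature nephron genes (grey). Black bars are list medians and the dashed line is the median of protein-coding genes at 2.91. The mature lists have medians from 0.11 to 0.61, the nephron patterning list 0.70, and the members 3.46.

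PAX8 and WT1 also act in other organs, and markers of those were read in the same way. Of 7 thyroid genes 3 were detected, the transcription factors HHEX with a mean TPM of 5.79 ± 1.07, NKX2-1 with 4.50 ± 0.905 and, chosen after its values were seen, FOXE1 with 1.35 ± 0.474 (SD, n = 2). Of 6 gonad genes 2 were detected, GATA4 with 27.7 ± 2.16 and AMH with 21.6 ± 1.20 (SD, n = 2), and DMRT1 was at 0 counts. Of 9 neuronal genes with a row 4 were detected, with UCHL1 at 253 ± 3.36 and NEFM at 10.5 ± 0.820 (SD, n = 2), and STMN2 was at 0 counts. NEFL had no matched row. None of the 3 lists held a larger share of detected genes than the 63.7% of protein-coding genes.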

How the data were processed

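Poly(A)+ RNA of HEK293T cells was sequenced in 2 libraries with reads of 50 bases. The submitters' processing notes name Trimmomatic 0.36, STAR 2.6.1c and RSEM 1.3.1 and the GRCh37 build, and the study's methods name genes of Ensembl release 87. The methods name featureCounts for counting, but the columns are those of RSEM, and the tables were read as such. In the deposited expected counts, reads of uncertain origin are split between the candidate genes. The deposited TPM and FPKM divide those counts by effective length and library total. Each count's posterior SD and each interval's bounds are deposited scores of that sharing, and the level of the interval is not in the file headers. Per the files' lengths, the model used a fragment of about 49.2 nt, close to the read length. One further table holds the authors' values for the reads of both libraries pooled.

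Symbols, gene types and GRCh37 positions came from GENCODE release 44 mapped to GRCh37, which matched 96.1% of identifiers. LHX1 and 4 of 162 list genes had no matched row. Counts were rounded to whole numbers for the test, and counts within 0.005 of a whole number were called whole. Scaling factors came from TMM in edgeR 4.0.16 (R 4.3.3), and the exact binomial test from scipy 1.17.1, over genes with 10 or more counts in the sum of both libraries. Log2 ratios used 0.5 added counts. Counting intervals are exact Poisson intervals at 95% of a count, converted to TPM at the gene's effective length. Detection meant 1 TPM or more in each replicate, and levels used log2(mean TPM + 1). The test was tested on simulated data. Promoter windows came from RefSeq.

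The 8 genes and the 23 lists were chosen with earlier results of these data known. Genes named were the 8, all genes overlapping them or within 5 kb, the 2 highest by mean TPM of each list, detected paralogues, and up to 3 genes at 0 counts in each list. Others are marked where they appear, and some genes of the lists are not reported here. As alternatives, detection was recounted with other thresholds (0.1 and 5 TPM, 1 FPKM, 10 counts, posterior means), and results were recomputed with pseudocounts of 0.1 and 0.01, other scaling and filters, windows of 36 bases, the pooled table, and leaving out each replicate. A planned comparison of PAX2 and PAX8 proteins was not made here.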

Additional observations from a re-analysis of the deposited data

How the results depend on the processing

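No paired analysis was possible because both libraries belong to 1 group. The number of members detected was 5 and stayed within 4 to 6 under each alternative, with OSR1 added at a TPM of 0.1, PAX2 lost at a TPM of 5 and PAX8 added by posterior means. The number of mature nephron genes detected moved to 13 with a TPM of 0.1, 2 with a TPM of 5 and 15 by posterior means, and that of paralogues to 12 with a TPM of 5. The median level of the members moved to 3.34 and 3.33 with pseudocounts of 0.1 and 0.01 and to 3.02 on FPKM. It also moved to 3.35 without replicate 1, and stayed at 3.46 without replicate 2. The difference between developmental and mature genes moved to 3.95 and 4.65 with those pseudocounts, 1.64 on FPKM and 1.38 by posterior means, and was 1.84 to 2.11 without either replicate. Genes differing between the libraries numbered 507 to 752 under the other scalings and filters, and 0 members passed in any of them, with a smallest adjusted p of 0.136 to 0.264. Of single values 12 moved by more than their limit and 30 did not. The mean TPM by posterior means was 30.7 for SIX2, 11.1 for WT1, 4.87 for PAX2, 1.79 for PAX8 and 0.895 for OSR1. WT1 (mean 10.2) fell below EYA1 (10.0) in the pooled table, with 9.89 against 10.04, at the pooled length, with 9.85 against 10.02, and without replicate 2, with 10.0 against 10.9. The causes were not tested. Depth limits OSR1 and PAX8 most, with 13 counts and 1 count in all.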
